A study of Mus musculus with 16 samples.

Results

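The 10 genes described here make, break down, carry or sense prostaglandins, and were chosen by name as the main uterine enzymes, transporter and receptors of that pathway: Ptgs1, Ptgs2, Ptges, Ptgis, Ptgds, Hpgds, Hpgd, Slco2a1, Ptger3 and Ptgfr. All 10 were found among the 31274 features of the table, and all 10 passed the filter on low values (a mean of at least 1 FPKM over all libraries), as did 15408 features in all. Ptgs2 passed it through its libraries from progesterone-treated mice, since its mean with oil was under 1 FPKM in both strains.

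Whole uteri of 2 mouse strains were profiled by RNA-seq, PgrcrePgrBLsL/+ (PRB below) and PgrcrePgrALsL/+ (PRA below). Both carry a Cre driven from the progesterone receptor gene Pgr and a Cre-activated transgene, for receptor isoform B in PRB mice and for isoform A in PRA mice. All mice had been ovariectomized for 2 weeks, and received progesterone (P4) or oil 6 h before collection. The 4 groups, PRB with P4, PRB with oil, PRA with P4 and PRA with oil, have 4 libraries each, labelled as biological replicates, 16 in all. Mice were kept with littermates to 8 weeks of age per the labels. The series title names the uterine epithelium as the site of isoform B expression, while the driver is Pgr and the tissue is whole uterus, so which cells carried the transgenes is not settled by the labels. Mice lacking either transgene were not among the samples, so the effect of carrying a transgene at all was not measured. A label field describes females mated and dissected on day 4 of pregnancy, which conflicts with the ovariectomy and treatment named elsewhere in the labels. The groups follow the treatments in the titles.

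Prostaglandins are made from arachidonic acid, which phospholipases free from membranes. The cyclooxygenases PTGS1 and PTGS2 turn it into prostaglandin H2, and terminal synthases turn that into prostaglandins E2, D2, F2-alpha or prostacyclin. The dehydrogenase HPGD, after uptake by the transporter SLCO2A1, inactivates them, and each acts through its own membrane receptors. In the uterus they are known for roles in implantation, decidualization, blood flow and contraction of the muscle layer at labour.

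The values are FPKM, fragments per kilobase of transcript, scaled to sequencing depth, so levels of different genes can be set side by side. Each library had an implied depth of 52.9 to 63.6 M fragments, by an estimate confined to a range set in advance. By that estimate even the lowest Ptgs2 value, 0.377 FPKM, rests on about 104 fragments. Changes are log2 differences of FPKM + 1 with their standard error (SE), and this scale understates the change of weakly expressed genes. A gene is called where the limma p-value adjusted over all 15408 features is under 0.05. Markers of epithelium, stroma, smooth muscle and endothelium each averaged 1 FPKM or more in every group. Pgr, whose value does not separate the isoforms or the transgene from the own gene, averaged 112 ± 22.3 FPKM in PRB uteri with P4, 83.5 ± 4.49 in PRB with oil, 73.9 ± 1.8 in PRA with P4 and 64.9 ± 5.52 in PRA with oil (SD, n = 4 each). Pgr was called higher in PRB than in PRA with P4 (0.57, adjusted p 0.00575). With oil the strains did not overlap and the difference was not called (0.36, adjusted p 0.588). The part of Pgr level in the strain differences below was not tested. PRB P4 replicate 3 stood farthest from its group, at a root mean square distance of 0.479 on the log2 scale against 0.332 to 0.413 in the other libraries, and results that depend on it are given with and without it. Library positions given in the labels differ by strain (row B for PRB, row A for PRA) and by treatment, so position cannot be told apart from either.

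P4 raised both cyclooxygenases, the prostaglandin E synthase Ptges, the prostaglandin D synthase Ptgds and the transporter Slco2a1 in both strains, and lowered the prostaglandin D synthase Hpgds and the prostaglandin F receptor Ptgfr in both strains. These are 7 of the 10 genes, 5 higher and 2 lower. The dehydrogenase Hpgd fell and the E receptor Ptger3 rose in PRA uteri, and the prostacyclin synthase Ptgis was not called in either strain. With P4, Ptgs1 was higher and Ptgs2 and Ptgfr were lower in PRB than in PRA uteri, while no gene of the 10 was called between the strains with oil.

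In PRB uteri 5 of the 10 genes were called higher with P4, 2 lower and 3 not, where 69.1% of all features were called (36.2% higher and 32.9% lower). In PRA uteri 6 were called higher, 3 lower and 1 not, where 69.8% of all features were called (36.6% higher and 33.2% lower). In PRB the share called, 7 of the 10, was near that of all features. That count depends on PRB P4 replicate 3. Without it, 6 of the 10 were called higher and 3 lower in PRB, where 69.3% of all features were called. In PRA 9 of the 10 were called, a higher share than over all features, and 2 of the calls there (Ptgds and Ptger3) were not stable to leaving out libraries. The genes were chosen with results known, so no test was made of these counts. They include Ptgs2, which passed the filter on low values only through its P4 libraries. The median log2 change of the 10 was 0.50 in PRB and 0.57 in PRA, against 0.00 in PRB and 0.01 in PRA over all features tested. P4 and oil libraries did not overlap for 4 of the 10 genes in PRB, where 61% of all features did not, and for 7 in PRA, where 66.2% did not.

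**Figure D1:**
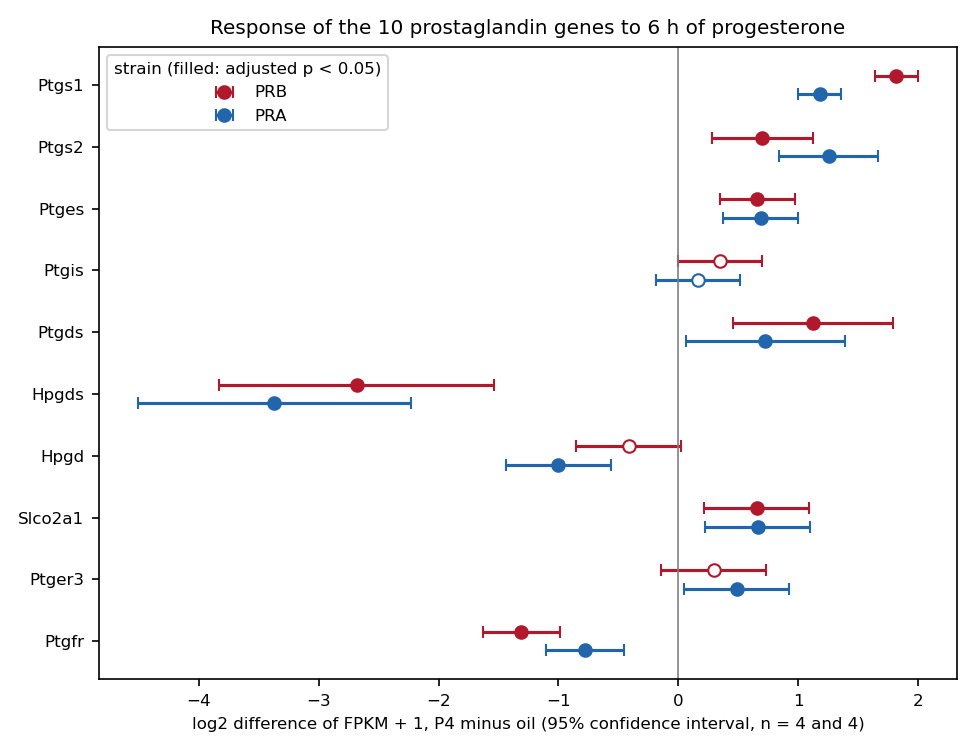
Log2 change with P4 against oil (log2 of FPKM + 1) for each of the 10 genes in PRB and PRA uteri, from 4 libraries a group; bars are 95% intervals of the fit and filled points are called. Hpgds lay farthest from zero, at -2.68 in PRB and -3.37 in PRA, and Ptgs1 was the gene whose response differed between the strains by the test.

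RefSeq promoter windows, 250 bases before to 50 after the start site, were found for 9 of the 10 genes and not for Ptgis, on build GRCm38.p6, which is mm10. The windows of 3 genes that rose with P4 and of Hpgds, which fell most, are printed 5′ to 3′ on the gene's strand to show what lies at the start of genes that moved in opposite directions. Capitals mark matches to searched motifs. For Ptgs1 (chr2:36230176-36230475, plus strand) and Ptges (chr2:30903248-30903547, minus strand) they mark a progesterone or glucocorticoid receptor half-site, TGTTCT on either strand. For Ptgs2 (chr1:150099781-150100080, plus strand) they mark a cyclic AMP response core, ACGTCA, that overlaps an E-box, CACGTG. Hpgds (chr6:65144681-65144980, minus strand) had no match.
Ptgs1: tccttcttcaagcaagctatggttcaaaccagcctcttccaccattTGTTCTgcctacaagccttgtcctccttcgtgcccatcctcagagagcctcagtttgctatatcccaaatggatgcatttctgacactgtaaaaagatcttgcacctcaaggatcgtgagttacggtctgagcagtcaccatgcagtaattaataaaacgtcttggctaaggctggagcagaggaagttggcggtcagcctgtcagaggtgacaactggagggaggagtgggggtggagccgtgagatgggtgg
Ptgs2: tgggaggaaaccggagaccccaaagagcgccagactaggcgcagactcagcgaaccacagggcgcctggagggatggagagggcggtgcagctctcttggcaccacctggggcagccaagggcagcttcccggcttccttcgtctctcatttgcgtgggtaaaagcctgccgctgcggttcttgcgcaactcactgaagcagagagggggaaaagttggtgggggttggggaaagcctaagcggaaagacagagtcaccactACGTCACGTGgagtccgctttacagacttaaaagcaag
Ptges: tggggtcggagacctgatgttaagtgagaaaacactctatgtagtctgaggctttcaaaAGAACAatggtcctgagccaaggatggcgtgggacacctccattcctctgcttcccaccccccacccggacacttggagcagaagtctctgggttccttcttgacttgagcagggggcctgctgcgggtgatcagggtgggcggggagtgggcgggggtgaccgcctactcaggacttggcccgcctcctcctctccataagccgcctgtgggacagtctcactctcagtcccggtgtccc
Hpgds: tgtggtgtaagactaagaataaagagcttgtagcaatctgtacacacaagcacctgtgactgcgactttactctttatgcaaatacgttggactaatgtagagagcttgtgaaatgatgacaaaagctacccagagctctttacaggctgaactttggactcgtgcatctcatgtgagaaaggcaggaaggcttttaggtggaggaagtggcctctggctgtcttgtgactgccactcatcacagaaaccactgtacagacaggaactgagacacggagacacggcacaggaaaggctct

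Counting the start site as 0, the half-site starts at position -204 for Ptgs1 and -191 for Ptges, and 19% of all 32851 promoter windows hold one on either strand. The Ptgs2 core and E-box start 12 and 16 bases after the start site annotated by RefSeq, and 7.51% and 7.15% of windows hold them. The start site used in these uteri was not examined. The full progesterone response element (GNACA and TGTNC with 3 bases between), in 0.475% of windows, and the estrogen response element (GGTCA and TGACC with 3 bases between), in 0.07%, were in none of the 9 windows. The letters TATAAA on the gene's strand, in 8.32% of windows, were found among the 9 for Slco2a1, at position -29, and for Hpgd, at position 4, after the start site. The half-site was in 2 of the 9 windows. The windows of Ptgds, Slco2a1 and Ptger3, which also rose in at least 1 strain, held no half-site, ACGTCA or CACGTG, and neither did that of Ptgfr, which fell. Each gene had 1 window. The annotated spans of Ptgs1 (from chr2:36216742) and Ptges (minus strand, up to chr2:30931020) begin upstream of their windows. So do those of Slco2a1 (from chr9:103007061), Ptgds (minus strand, up to chr2:25470110) and Hpgds (minus strand, up to chr6:65144981). Other start sites were not searched. These matches describe letters in these windows and say nothing of binding.

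Ptgs1, the cyclooxygenase expressed in most tissues, was the most abundant of the 10 genes, with a mean of 54.4 FPKM over the 16 libraries. Its level was 90.4, 107, 96.3 and 91.7 FPKM in PRB uteri with P4, against 26.3, 26.5, 27.0 and 26.6 FPKM in PRB with oil. It was 78.7, 68.1, 57.4 and 60.3 FPKM in PRA uteri with P4, against 26.1, 28.5, 28.5 and 30.9 FPKM in PRA with oil. Every P4 library lay above every oil library, and every PRB library with P4 above every PRA library with P4. The P4 change was 1.82 (SE 0.0843, adjusted p 3.25e-10, 3.62-fold by means) in PRB and 1.18 (SE 0.0843, adjusted p 1.7e-08, 2.32-fold) in PRA. The responses differed between the strains by 0.64 (SE 0.119, adjusted p 0.0141), a comparison in which 2.28% of all features were called (1.47% higher and 0.811% lower in PRB) and no other gene of the 10 was. In whole tissue, more RNA per cell and more cells of the type that makes it cannot be told apart, here and below.

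Ptgs2, the inducible cyclooxygenase, was the least abundant of the 10, with a mean of 1.76 FPKM over the 16 libraries. It had 2.73, 2.17, 0.989 and 1.75 FPKM in PRB uteri with P4, against 0.567, 0.443, 1.05 and 1.01 FPKM in PRB with oil. In PRA uteri Ptgs2 had 3.75, 3.63, 3.37 and 3.09 FPKM with P4, against 1.14, 0.779, 0.377 and 1.31 FPKM with oil. The PRA groups were apart, and the PRB groups overlapped through PRB P4 replicate 3. The change was 0.70 in PRB (SE 0.196, adjusted p 0.00537) and 1.26 in PRA (SE 0.196, adjusted p 4.34e-05), and without PRB P4 replicate 3 the PRB change was 0.87 (adjusted p 0.000662). Ptgs1 made up 98.1% ± 0.783 of summed cyclooxygenase FPKM in PRB uteri with P4 and 97.2% ± 1.07 in PRB with oil (SD, n = 4). The share was 95% ± 0.421 in PRA uteri with P4 and 96.9% ± 1.36 in PRA with oil (SD, n = 4).

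**Figure D2:**
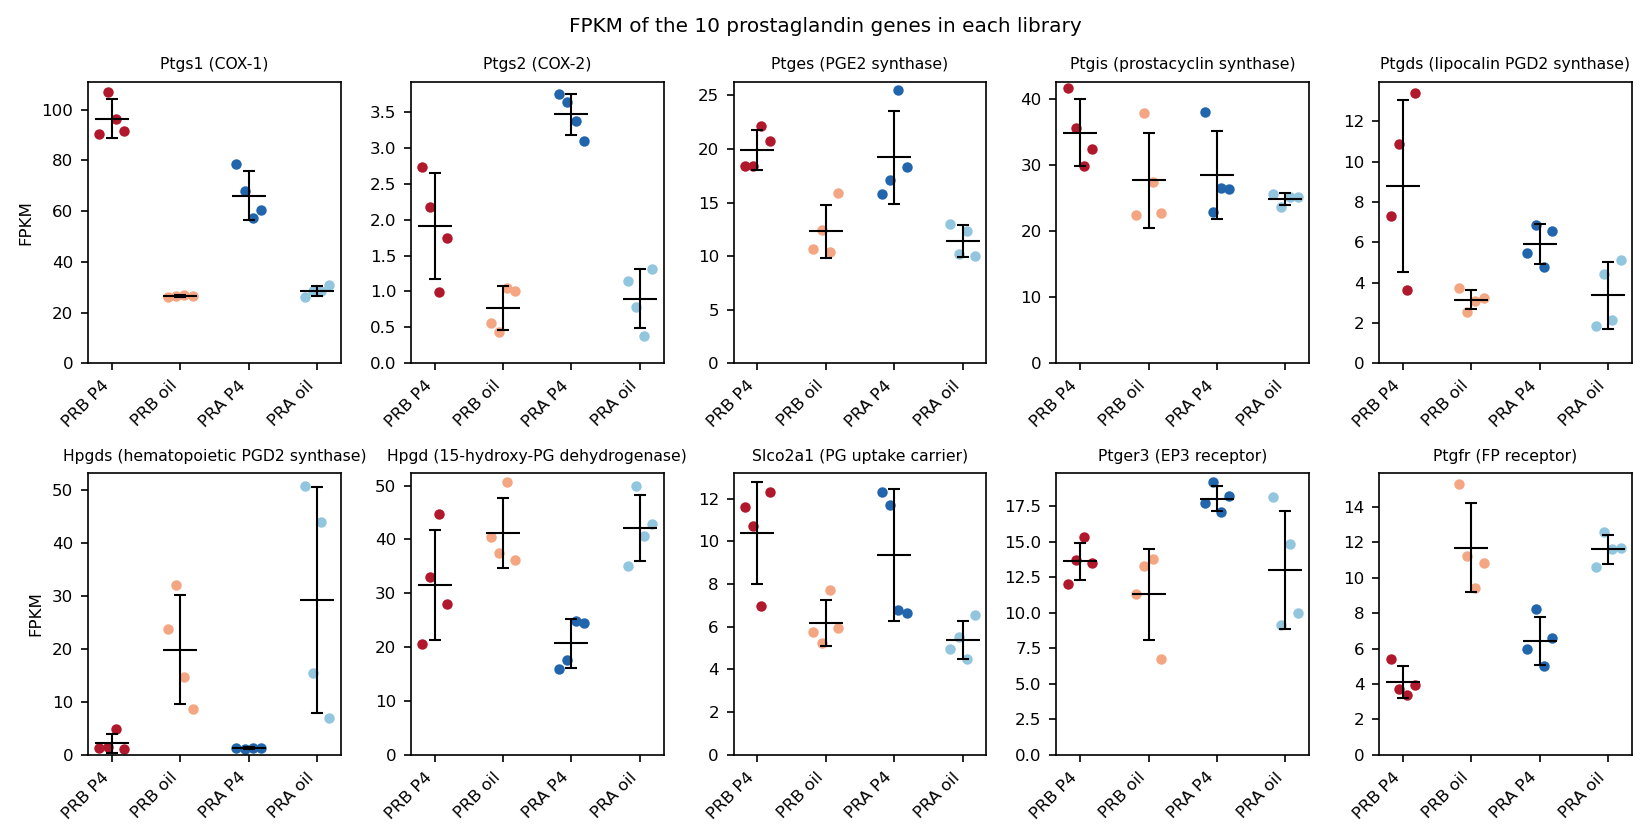
FPKM of each of the 10 genes in every library (points), with the group mean and SD (bars), for PRB with P4, PRB with oil, PRA with P4 and PRA with oil, on a linear axis from 0. Ptgs1 with P4 sits between 57.4 and 107 FPKM in both strains, above all oil libraries, while Hpgds with P4 lies between 1.09 and 4.89 FPKM, below them.

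Of the terminal synthases, Ptges, the inducible prostaglandin E synthase, ranged from 18.4 to 22.1 FPKM in PRB uteri with P4 and from 10.4 to 15.9 in PRB with oil. In PRA uteri it ranged from 15.8 to 25.5 FPKM with P4 and from 10 to 13.0 with oil. The groups did not overlap in either strain, and the changes were nearly equal, 0.66 (SE 0.146, adjusted p 0.000988) in PRB and 0.69 (SE 0.146, adjusted p 0.000686) in PRA. Ptgis, the prostacyclin synthase, averaged 34.9 ± 5.07 FPKM in PRB uteri with P4 and 27.7 ± 7.16 in PRB with oil (SD, n = 4). It averaged 28.5 ± 6.63 FPKM in PRA uteri with P4 and 24.9 ± 0.888 in PRA with oil (SD, n = 4). Its change was not called in PRB (0.35, 95% interval -0.01 to 0.70, adjusted p 0.0738) or in PRA (0.16, interval -0.19 to 0.51, adjusted p 0.391). It was called in PRB without PRB P4 replicate 3 (0.41, adjusted p 0.0495), without PRB oil replicate 2 (0.50, adjusted p 0.00705) and without PRA P4 replicate 1 (0.35, adjusted p 0.0408).

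The 2 prostaglandin D synthases moved in opposite directions. Hpgds, the hematopoietic form known from mast cells and other immune cells, had 1.38, 1.42, 4.89 and 1.15 FPKM in PRB uteri with P4, against 23.8, 32.1, 14.6 and 8.65 FPKM in PRB with oil. In PRA uteri the level was 1.35, 1.09, 1.37 and 1.27 FPKM with P4, against 50.6, 15.5, 43.9 and 6.93 FPKM with oil. P4 libraries were all lower than oil libraries, and the oil libraries were spread widely, most of all in PRA. By means Hpgds was 8.98-fold lower in PRB (log2 -2.68, SE 0.534, adjusted p 0.000406) and 23-fold lower in PRA (log2 -3.37, SE 0.534, adjusted p 5.1e-05). Without PRB P4 replicate 3 the PRB log2 change was -3.02, and the other 3 PRB P4 libraries averaged 1.31 ± 0.147 FPKM.

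Ptgds, the lipocalin-type synthase, had 7.30, 10.9, 3.62 and 13.4 FPKM in PRB uteri with P4, against 3.73, 2.56, 3.11 and 3.22 FPKM in PRB with oil. In PRA uteri it had 5.48, 6.88, 4.76 and 6.56 FPKM with P4, against 1.84, 4.44, 2.13 and 5.13 FPKM with oil. Groups overlapped in both strains, through PRB P4 replicate 3 in PRB. The change was 1.12 in PRB (SE 0.311, adjusted p 0.00495), or 1.45 without that library, and 0.73 in PRA (SE 0.311, adjusted p 0.0494). The PRA call was lost when any of 12 of the 16 libraries was left out, with adjusted p 0.0505 to 0.153. It was kept only without PRA oil replicate 2 or 4 or PRB P4 replicate 3 or 4.

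Markers of cells known to make prostaglandin D were examined beside Hpgds. Of the mast cell list, 7 of 10 genes were tested. In PRB uteri 3 were called higher and 2 lower with P4, and in PRA uteri 3 higher and 4 lower. Over all features 69.1% were called in PRB and 69.8% in PRA. The 3 genes of the list called higher were Hdc, Gata2 and Kit, and which cells expressed them was not tested. The mast cell protease Cpa3 fell by 0.42 in PRB (adjusted p 0.0289) and 0.86 in PRA (adjusted p 0.000223), and the protease Cma1 by 0.45 in PRB (adjusted p 0.0492) and 1.03 in PRA (adjusted p 0.000199). The summed list was mostly Hdc and Gata2, which averaged 253 and 254 FPKM in PRB with P4, 34.4 and 119 in PRB with oil, 218 and 184 in PRA with P4, and 19.7 and 114 in PRA with oil. The proteases Cpa3, Cma1, Mcpt4 and Tpsb2 had lower means with P4 than with oil in both strains. The sum lay between 466 and 604 FPKM in PRB with P4, 164 and 209 in PRB with oil, 371 and 530 in PRA with P4, and 150 and 188 in PRA with oil. No mast cell gene was at 0 in all 4 libraries of a group, and 3 of the 10 averaged under 1 FPKM in every group. Of the macrophage and leukocyte list, 9 of 10 genes were tested. With P4, 1 was called higher and 0 lower in PRB, and 1 higher and 1 lower in PRA. Its sum was 247, 252, 514 and 234 FPKM in PRB P4 replicates 1 to 4, where Hpgds was highest in replicate 3. It lay between 222 and 240 in PRB with oil, 195 and 242 in PRA with P4, and 160 and 237 in PRA with oil. The part of these cells or of mast cells in the Hpgds result was not tested.

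**Figure D3:**
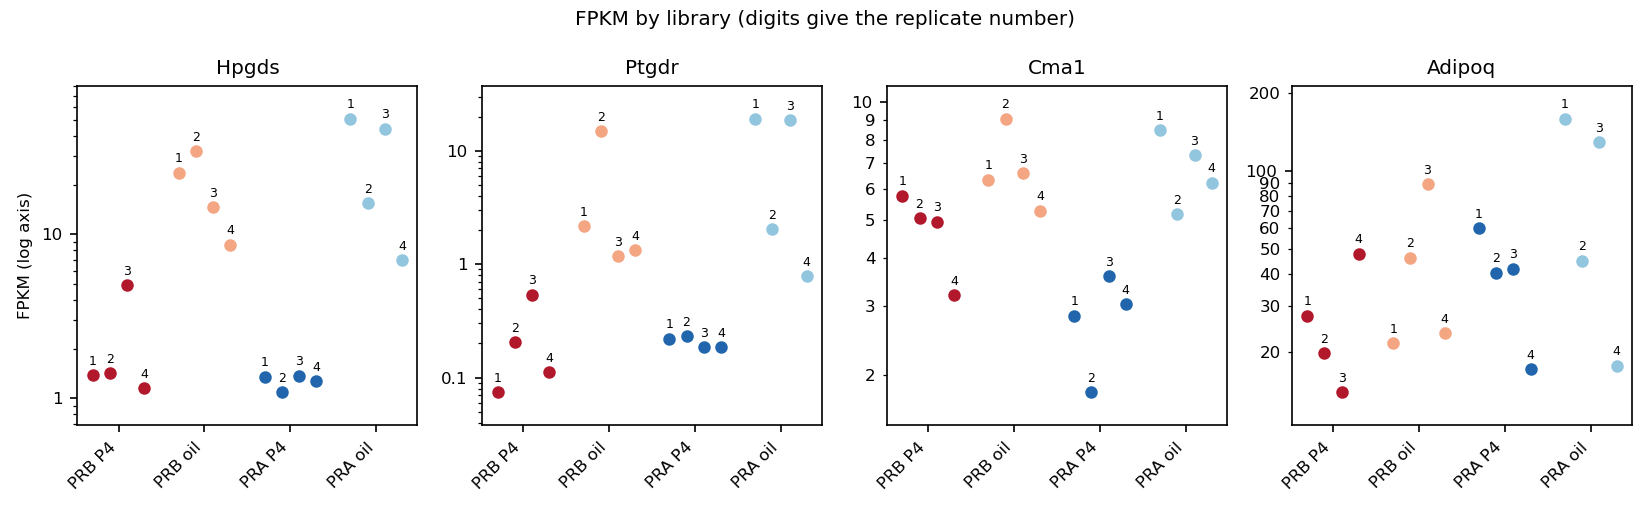
FPKM of Hpgds, of a D receptor (Ptgdr), of the mast cell protease Cma1 and of the fat cell hormone Adipoq in every library. Points carry replicate numbers and are set by group (PRB with P4, PRB with oil, PRA with P4, PRA with oil), on log axes. Hpgds and Ptgdr are lower in all P4 libraries than in the oil libraries of their strain, and PRA oil replicates 1 and 3 are the highest of their group in all 4 panels.

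Of the genes for breakdown and uptake, Hpgd, the main inactivating dehydrogenase, had 20.5, 33.1, 44.7 and 28.1 FPKM in PRB uteri with P4, against 40.5, 37.4, 50.6 and 36.2 FPKM in PRB with oil. In PRA uteri it had 15.9, 17.7, 24.9 and 24.4 FPKM with P4, against 35.0, 49.9, 40.7 and 42.8 FPKM with oil. The PRA groups were apart, while PRB P4 replicate 3 lay above 3 of the PRB oil libraries. Hpgd fell by 1.00 in PRA (SE 0.205, adjusted p 0.000489), and its change in PRB was -0.41 (SE 0.205, 95% interval -0.85 to 0.02, adjusted p 0.0857). Without PRB P4 replicate 3 the PRB change was -0.59 and was called (adjusted p 0.0121). The responses of the strains differed by 0.59, which was not called (adjusted p 0.333).

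Slco2a1, the prostaglandin transporter, had 11.6, 10.7, 6.96 and 12.3 FPKM in PRB uteri with P4, against 5.76, 5.23, 7.72 and 5.95 FPKM in PRB with oil. In PRA uteri Slco2a1 had 12.3, 11.7, 6.78 and 6.63 FPKM with P4, against 4.98, 5.51, 4.48 and 6.57 FPKM with oil. The PRA groups did not overlap, although 2 P4 libraries lay just above the highest oil library, and the PRB groups overlapped. It rose by 0.65 in PRB (SE 0.205, adjusted p 0.0107) and by 0.66 in PRA (SE 0.205, adjusted p 0.00985). Hpgd and Slco2a1, which act in turn in the clearance of prostaglandins, therefore moved in opposite directions in PRA uteri.

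Among the receptors, Ptgfr, the F receptor through which prostaglandins contract uterine muscle, had 5.41, 3.71, 3.36 and 3.94 FPKM in PRB uteri with P4, against 15.3, 11.2, 9.39 and 10.8 FPKM in PRB with oil. In PRA uteri it had 6.00, 8.22, 5 and 6.58 FPKM with P4, against 10.6, 12.6, 11.6 and 11.7 FPKM with oil. Every P4 library was lower than every oil library of its strain. Ptgfr was 2.85-fold lower by means in PRB (log2 -1.31, SE 0.152, adjusted p 2.26e-06) and 1.80-fold lower in PRA (log2 -0.77, SE 0.152, adjusted p 0.000344). The responses differed by -0.53 between the strains, which was not called (adjusted p 0.226). The 8 smooth muscle markers went both ways, with 2 called higher and 2 lower in PRB, where 69.1% of all features were called. In PRA 2 were called higher and 1 lower, where 69.8% of all features were called. Among these markers Smtn fell by 0.59 in PRB and 0.69 in PRA, while Des rose by 0.84 in PRB and 0.69 in PRA. Their sum lay between 880 and 1430 FPKM in PRB with P4, 925 and 1190 in PRB with oil, 988 and 1370 in PRA with P4, and 973 and 1270 in PRA with oil.

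Ptger3, a prostaglandin E receptor that lowers cyclic AMP, averaged 13.6 ± 1.32 FPKM in PRB uteri with P4 and 11.3 ± 3.19 in PRB with oil (SD, n = 4). It averaged 18 ± 0.885 FPKM in PRA uteri with P4 and 13.0 ± 4.18 in PRA with oil (SD, n = 4). Groups overlapped in both strains. The change was 0.30 in PRB (SE 0.204, adjusted p 0.213) and 0.49 in PRA (SE 0.204, adjusted p 0.0457). The PRA call was lost when any of 10 of the 16 libraries was left out, with adjusted p 0.0514 to 0.15. It was kept only without PRA oil replicate 1 or 3, PRB oil replicate 2, 3 or 4, or PRB P4 replicate 3.

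The strains were then compared within each treatment. These comparisons share their libraries with the P4 contrasts above. With oil, none of the 10 genes was called, where 0.117% of all features were (0.0389% higher and 0.0779% lower in PRB), and all 10 overlapped, where 3.39% of features did not. The PRB minus PRA difference was -0.09 for Ptgs1 (95% interval -0.27 to 0.09), -0.01 for Ptgfr (interval -0.33 to 0.32) and -0.32 for Hpgds (interval -1.47 to 0.82). With P4, 1 gene was called higher and 2 lower in PRB, where 16% of all features were called (7.75% higher and 8.29% lower), and 3 of the 10 did not overlap, where 20.2% of features did not. Ptgs1 averaged 96.4 ± 7.67 FPKM in PRB and 66.1 ± 9.52 in PRA with P4 (SD, n = 4), a difference of 0.54 (adjusted p 0.000988).

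Ptgs2 went the other way, with 1.91 ± 0.733 FPKM in PRB and 3.46 ± 0.29 in PRA with P4 (SD, n = 4, difference -0.65, adjusted p 0.0365). Ptgfr was also lower in PRB, at 4.10 ± 0.901 FPKM, against 6.45 ± 1.35 in PRA (SD, n = 4, difference -0.54, adjusted p 0.0263). Both were less firm than Ptgs1. The Ptgs2 call was lost without any 1 of the 4 PRA P4 libraries or of PRB P4 replicates 2, 3 and 4 (adjusted p 0.0515 to 0.0848). The Ptgfr call was lost without PRA P4 replicate 2 or 4 or PRB P4 replicate 2, 3 or 4 (adjusted p 0.052 to 0.0843). Hpgd was not called (0.56, adjusted p 0.0789) but was without PRB P4 replicate 1 (0.74, adjusted p 0.0206). Ptger3 was lower in every PRB library than in every PRA library with P4, and was not called (-0.38, adjusted p 0.224).

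For the 3 genes with the largest P4 change on the log2(FPKM + 1) scale, the most similar features were found by the root mean square difference of centred log2 values over the 16 libraries. On a scale with pseudocount 0.1, Ptgs2 (1.94 in PRA) would rank above Ptgfr (-1.49 in PRB). For Ptgs1 they were Rab27a (distance 0.0816), Gmps (0.116) and Lgalsl (0.119). Rab27a, a small GTPase of vesicle transport, changed by 1.74 in PRB and 1.19 in PRA. For Hpgds they were Pbld1 (0.505), Rab17 (0.528) and Msc (0.531), with 1 unnamed feature nearer, and for Ptgfr they were Kcnip1 (0.149), Pgm5 (0.153) and Frmd4b (0.177). The larger distances for Hpgds go with its wide scatter, since 97.9% of features had a smaller spread within groups.

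The wider pathway was taken from a list of 59 other genes, of which 43 were tested. In PRB uteri 12 were called higher with P4, 11 lower and 20 not, with a median change of -0.02, and in PRA uteri 11 higher, 10 lower and 22 not, with a median of -0.07. Called were thus 23 of 43 in PRB and 21 of 43 in PRA, lower shares than the 69.1% (PRB) and 69.8% (PRA) of all features. In both strains 10 were called higher and 8 lower. Among 12 genes of arachidonic acid release, 3 rose and 3 fell in each strain. Pla2g10, a secreted phospholipase A2, averaged 154 ± 33.9 FPKM in PRB uteri with P4 and 24.1 ± 2.5 in PRB with oil, and 104 ± 19.6 in PRA with P4 and 26.6 ± 4.26 in PRA with oil (SD, n = 4), and its log2 change was 2.60 in PRB and 1.93 in PRA. Pla2g4a, the cytosolic phospholipase A2, rose in PRA (0.67, adjusted p 0.000829) and was not called in PRB (0.02, adjusted p 0.90), and the difference between the responses was not called (-0.65, adjusted p 0.121).

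Of 9 further synthases, 4 rose and 2 fell in PRB, and 4 rose and 3 fell in PRA. Over all features 69.1% were called in PRB and 69.8% in PRA, here and for the transport genes below. Ptges3, a cytosolic prostaglandin E synthase that is also the cochaperone p23, rose by 1.13 in PRB and 1.16 in PRA. Ptges2, the other E synthase, rose by 1.02 in PRB and 0.99 in PRA. Akr1b3, an aldose reductase with prostaglandin F synthase activity, rose by 1.00 in PRB and 0.95 in PRA, and Gstm2, a glutathione transferase, by 1.93 in PRB and 2.05 in PRA. Akr1c14, an aldo-keto reductase, fell by 1.52 in PRB and 1.48 in PRA. Of 5 genes of breakdown and transport, 2 rose and 1 fell in PRB, and 1 rose and 1 fell in PRA. Abcc4, an exporter of prostaglandins, rose by 0.96 in PRB and 0.68 in PRA. Slco3a1, an organic anion transporter, rose in PRB (1.37, adjusted p 3.35e-07) and was not called in PRA (0.27), with a difference between the responses of 1.10 (adjusted p 0.0083).

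Of 10 other genes on the receptor list, 2 rose and 3 fell in each strain. Over all features 69.1% were called in PRB and 69.8% in PRA. The 2 that rose were Ptgfrn, a regulator of the F receptor, and the nuclear receptor Ppard. No membrane receptor of prostaglandins on this list was called higher. Ptger4, an E receptor that raises cyclic AMP, fell by 0.49 in PRB (adjusted p 0.036) and 0.68 in PRA (adjusted p 0.00607), and Ptgir, the prostacyclin receptor, by 0.50 in PRB and 0.56 in PRA. Ptgdr, a D receptor, had 0.0744, 0.205, 0.54 and 0.111 FPKM in PRB uteri with P4, against 2.16, 14.9, 1.18 and 1.33 FPKM in PRB with oil. In PRA uteri Ptgdr had 0.221, 0.233, 0.185 and 0.186 FPKM with P4, against 19.2, 2.03, 18.6 and 0.785 FPKM with oil. Every P4 library lay below every oil library of its strain, and the log2 change was -1.71 in PRB (adjusted p 0.0521, not called) and -2.50 in PRA (adjusted p 0.00749). Ptgdr passed the filter on low values only through its oil libraries, so it had to differ, and this change is a description. Gpr44, the other D receptor, fell in PRB (-0.42, adjusted p 0.00779) and was not called in PRA (-0.15). The E receptor Ptger2 and the thromboxane receptor Tbxa2r were not called with P4 in either strain.

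**Figure D4:**
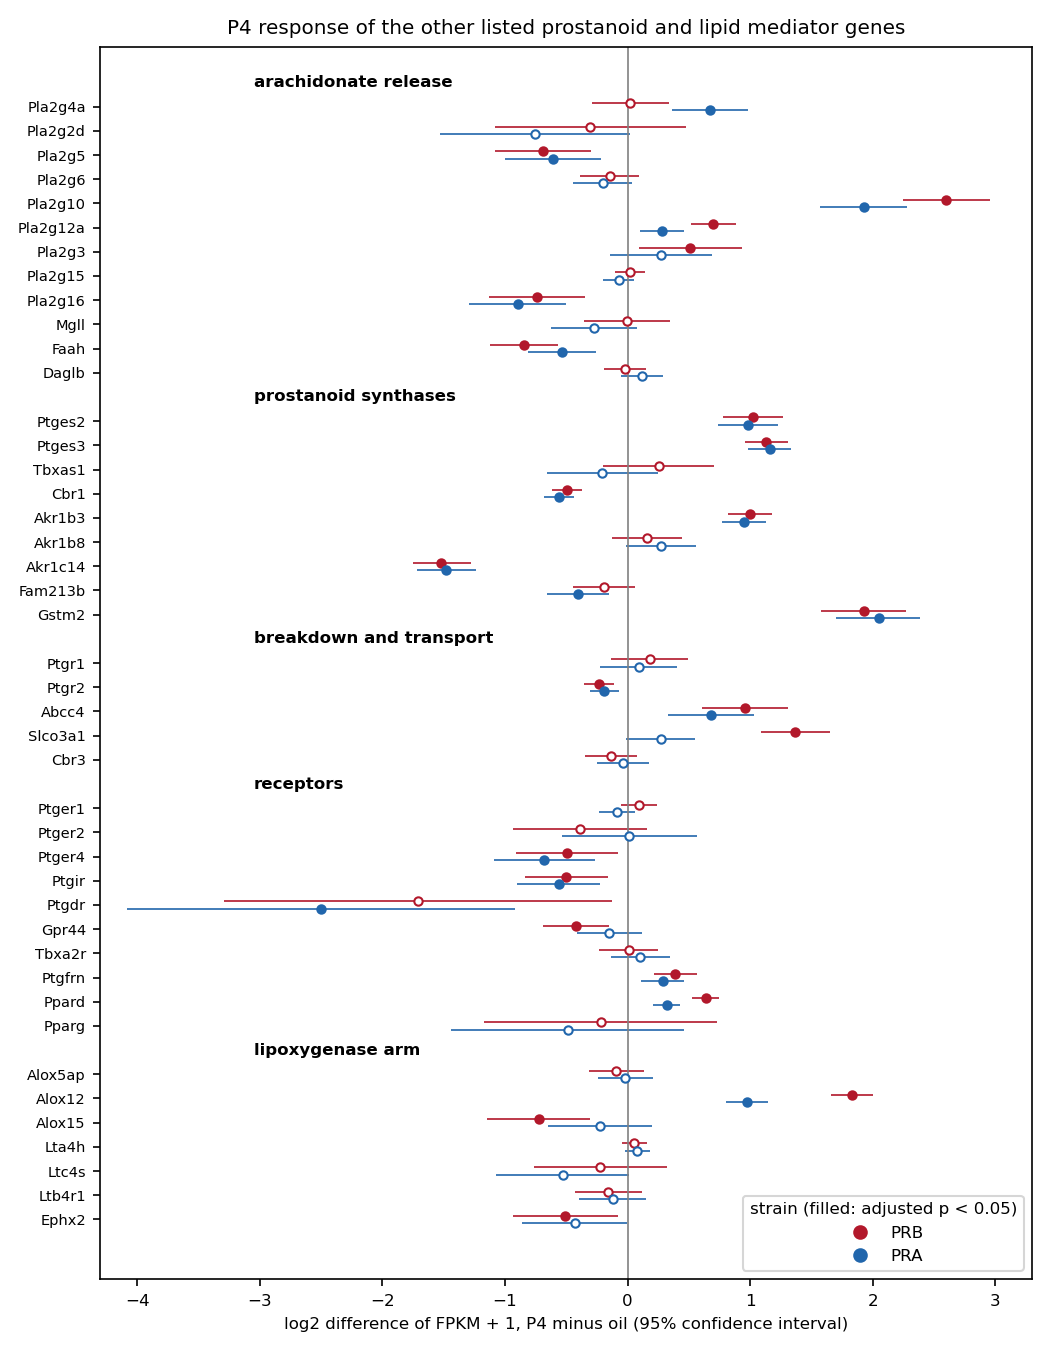
Log2 change with P4 against oil (log2 of FPKM + 1, horizontal axis) in PRB and PRA uteri for the 43 other pathway genes tested, grouped by role, from 4 libraries a group, with 95% intervals of the fit and filled points where called. Pla2g10 and Gstm2 lie farthest to the right in both strains, and Ptgdr farthest to the left with wide intervals.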

How the data were processed

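The authors deposited FPKM per feature for 16 whole-uterus libraries. TopHat2 2.0.4, Cufflinks 2.0.2, Cuffdiff and build mm10 are named in the submitters' processing notes, with no role or order. The sources used here do not name the annotation, the strand setting or how libraries were scaled to each other. Ptgs1, Ptgis, Slco2a1 and Ptgfr overlap an exon of a gene on the other strand that is not in the table, and reads of such a pair cannot be told apart without strand.

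Values were analysed as log2(FPKM + 1) with limma 3.58.1 in R 4.3.3, with 1 mean per group, an intensity trend, 2-sided tests and Benjamini-Hochberg adjustment over 15408 features (mean FPKM 1 or more). The test was checked on simulated data. Depth was implied from the lowest values of features with 1 transcript, since no counts were used. Only values within a range of depths set in advance were kept, so the estimate could not fall outside it. Replicates are labelled biological, and replicate numbers were not used to pair libraries in the main fit. Named were the 10 genes, pathway genes called in a P4 contrast, uncalled prostanoid synthases and receptors, and the 3 most similar features of the 3 genes with the largest P4 change. The members and lists were chosen with earlier results of these data known, and the motifs after the sequences were seen. Alternatives were other pseudocounts (0.1 and 5), filters (none, or a mean of 5 FPKM), scalings, no trend, the contrast's libraries alone, a replicate block, and leaving out each library. Promoters come from RefSeq on GRCm38.p6.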

Additional observations from a re-analysis of the deposited data

Results flagged for a closer look

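Hpgds in PRB P4 replicate 3 stood apart at 4.89 FPKM, while the other 3 PRB P4 libraries lay between 1.15 and 1.42. This was the 1 library flagged in 40 sets of 4 libraries, and chance flags about 1 in 20.

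The P4 response of 4 genes differed between the strains by the test of the difference itself (PRB minus PRA, limma). It was larger in PRB by 0.64 for Ptgs1 (adjusted p 0.0141), by 1.10 for Slco3a1 (adjusted p 0.0083), by 0.85 for Alox12 (adjusted p 0.00163) and by 0.32 for the nuclear receptor Ppard (adjusted p 0.0377). The Ppard call was lost under 11 alternatives.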

How the results depend on the processing

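Of 50 results (10 genes in 5 contrasts), 42 stayed called or stayed uncalled under all alternatives run, and many of these were uncalled throughout. Calls were lost under some alternatives for Ptgs2 and Ptgfr between the strains with P4, and for Ptgds and Ptger3 with P4 in PRA. No called change switched sign. Uncalled differences near 0 did, such as Hpgds between the strains with oil (-0.84 to 0.06). With pseudocount 5 the changes of low genes were smaller, and every call of the 10 genes held but that of Ptgds in PRA. Examples are Ptgs2 (0.26 in PRB and 0.52 in PRA), Hpgds (-1.71 in PRB and -2.19 in PRA) and Ptgfr in PRB (-0.87). The difference of the strains with P4 was then -0.30 for Ptgs2 and -0.33 for Ptgfr, both still called. Calls over all features numbered 18 between the strains with oil, against 33 without a filter, 6 from the contrast's libraries alone and 8 to 29 with a library left out. They numbered 2471 between the strains with P4, against 1640 from the contrast's libraries alone and 1412 to 2612 with a library left out, and 352 for the difference of responses, against 155 to 494. Members lower in PRB with P4 numbered 2, against 1 with pseudocount 0.1, with a mean of 5 FPKM or from the contrast's libraries alone, and 0 to 2 with a library left out. Members higher numbered 1, against 1 to 2 with a library left out.

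Between the strains with P4, Ptgs2 was -0.91 with pseudocount 0.1 (adjusted p 0.0992), -0.65 from the contrast's libraries alone (adjusted p 0.0574) and -0.78 to -0.48 with a library left out. Ptgfr was -0.54 from the contrast's libraries alone (adjusted p 0.0697) and -0.66 to -0.44 with a library left out. Ptger3 was -0.38 and called from the contrast's libraries alone (adjusted p 0.021), and Hpgd was 0.38 to 0.74 with a library left out. For P4 in PRA, Ptgds was 0.40 with pseudocount 5 (adjusted p 0.0754), 0.73 without a filter (0.0707) or without the trend (0.0514), 0.69 with median-ratio scaling (0.0616) and 0.54 to 0.91 with a library left out. Ptger3 in PRA was 0.49 without a filter (0.0645) or from the contrast's libraries alone (0.0501), 0.48 with quantile normalization (0.0641), 0.44 with median-ratio scaling (0.071) and 0.35 to 0.65 with a library left out. For P4 in PRB, Hpgd was -0.60 with quantile normalization (adjusted p 0.0163) and -0.59 to -0.23 with a library left out, and Ptgis was 0.26 to 0.50. The cause of these changes was not tested.

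With the replicate number as a block, Hpgd was called for P4 in PRB (-0.41, adjusted p 0.0356) and between the strains with P4 (0.56, adjusted p 0.035), which made 2 members higher. The block called 10798 features with P4 in PRA, 10705 in PRB, 19 between strains with oil, 2569 with P4 and 467 for the difference. Of 16 libraries, 5 correlated best with their own number in the other treatment. Some would do so by chance, so this count cannot settle whether the numbers pair the libraries. The part of sequencing depth in the spread of low values such as Ptgs2 was not tested.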

Other observations

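The list for the lipoxygenase branch, which competes for arachidonic acid, had 7 genes tested. Of these, 1 rose and 2 fell in PRB with P4 (where 69.1% of all features were called), and 1 rose in PRA (where 69.8% were). The gene that rose in both was Alox12, an arachidonate lipoxygenase, at 22.0 ± 2.0 FPKM in PRB with P4 and 5.47 ± 0.292 in PRB with oil, and 12.8 ± 1.32 in PRA with P4 and 6.02 ± 0.563 in PRA with oil (SD, n = 4 each). Its log2 change was 1.83 in PRB (limma adjusted p 2.04e-10) and 0.98 in PRA (adjusted p 6.99e-08). The 2 that fell in PRB were Alox15, by 0.73, and Ephx2, by 0.51 (limma adjusted p 0.0345). Ephx2 is an epoxide hydrolase on the list and not a lipoxygenase.

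The scatter of Hpgds in oil libraries went with that of genes picked after their values were seen. In PRA oil replicates 1 to 4, in order, Hpgds was 50.6, 15.5, 43.9 and 6.93 FPKM and Ptgdr was 19.2, 2.03, 18.6 and 0.785. Pparg, a nuclear receptor of fat cells, was 10.4, 2.42, 10.3 and 1.37 FPKM there, and the fat cell hormone Adipoq was 159, 45, 129 and 17.7. The proliferation gene Mki67 was 1.52, 7.52, 1.44 and 11.2 FPKM in the same libraries. In PRB oil replicates, Adipoq was 21.6, 46.3, 89.1 and 23.6 FPKM, while Hpgds was highest in replicate 2 at 32.1. With P4, Adipoq lay between 14.0 and 47.9 FPKM in PRB and between 17.2 and 60.1 in PRA, where Hpgds was at most 4.89 in PRB and 1.37 in PRA. The part of fat tissue in the Hpgds result was not tested.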
